A study of Mus musculus with 8 samples.

Results

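The 253 peaks described here were those of the m6A peak table that had almost no reads in the immunoprecipitate (IP) of normal TM3 cells and a clear level in the IP of TM3 cells exposed to bisphenol A (BPA). They were chosen by a level of at most 1.9 RPM (reads scaled to a common library total) in the normal IP, which is 10 or fewer reads, and of 101 or more reads in the BPA IP. They made up 253 of the 3331 listed peaks and lay in 232 of the 2295 genes with a peak. The IP levels chose the peaks, so every IP level, and every fold change made from it, is given as a description and carries no test. They are called gained peaks below.

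TM3 is an established mouse cell line of Leydig type, the testosterone-making cell of the testis, and BPA is a plastics monomer with estrogen-like activity. The groups were normal cells and BPA-exposed cells of the same line, with 2 MeRIP and 2 RNA-seq libraries in each of the conditions, 8 libraries in all. The labels give neither dose nor time of exposure, no vehicle for the normal cells, and no statement that replicates came from separate cultures, so a p-value measures the spread between these libraries alone. The peak table holds pooled levels, 1 IP and 1 input value for each condition, so no peak level has a replicate check.

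N6-methyladenosine (m6A) is the most common internal modification of mRNA. A complex around METTL3, METTL14 and WTAP writes it, FTO and ALKBH5 can remove it, and proteins of the YTH and IGF2BP families read it and act on splicing, translation and decay of the transcript. In MeRIP-seq, fragments with m6A are captured by an antibody, and the input is the same RNA sequenced without the antibody. A peak level in the IP therefore has to be read beside the input at the same place, because more RNA also gives more IP reads.

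The peak table was a selected one. Its highest authors' false discovery rate was 0.0147 and its highest authors' p was 0.00984, so peaks without a difference between conditions were not among those analysed here. The RPM values moved in fixed steps, which gave back the reads: 1 read was worth 0.185 RPM in the normal IP, 0.587 in the normal input, 0.256 in the BPA IP and 1.22 in the BPA input. A value of 0 allows up to 0.555, 1.76, 0.768 and 3.67 RPM in these columns, at 3 reads each and for counting error only. The steps put the column totals, in the same order, at 5.40e+06, 1.70e+06, 3.91e+06 and 818212 reads. In each column the listed peaks summed to between 826089 and 894159 RPM. Each level is therefore relative mainly to the reads of the listed peaks and not to a whole library. The RNA-seq libraries held 10455643 and 7517482 gene reads for normal cells and 8813870 and 6305121 for BPA cells. In bulk RNA, fewer cells of a type and less RNA per cell cannot be told apart. Of the steroidogenic genes listed as Leydig cell markers, 6 of 19 were in the count table used here (Scarb1 and Tspo among them), and none of them had a gained peak.

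In the normal IP, 120 of the 253 gained peaks had 0 reads, 73 had 1 read and 24 had more than 2. In the BPA IP the same peaks ranged from 125.88 to 1353.5 RPM, with a median of 336.2 RPM, which is 492 to 5290 reads and a median of 1314. No gained peak lay near the limit of 101 reads in the BPA IP. Only 2 of the 255 peaks at or under the normal limit missed the BPA limit, one in Gm12696 at 8.19 RPM and one in Slc2a10, a glucose transporter gene, at 5.88 RPM. The lowest gained peaks lay in Pdcd6ip at 125.88 RPM, Rgs19 at 136.63 RPM and Phc2 at 142.77 RPM. At the other limit the peaks of Hspa9 and Cyb5d1 (1.85 RPM each) and Anp32b (1.67 RPM) were just inside. Those of Nfe2l1 (2.22 RPM), Slc25a1 (2.78 RPM) and Ppm1g (4.26 RPM) were just outside, with 202.13 to 467.71 RPM in the BPA IP. These 3 have the same shape of values as the gained peaks and are not counted among them.

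**Figure D1:**
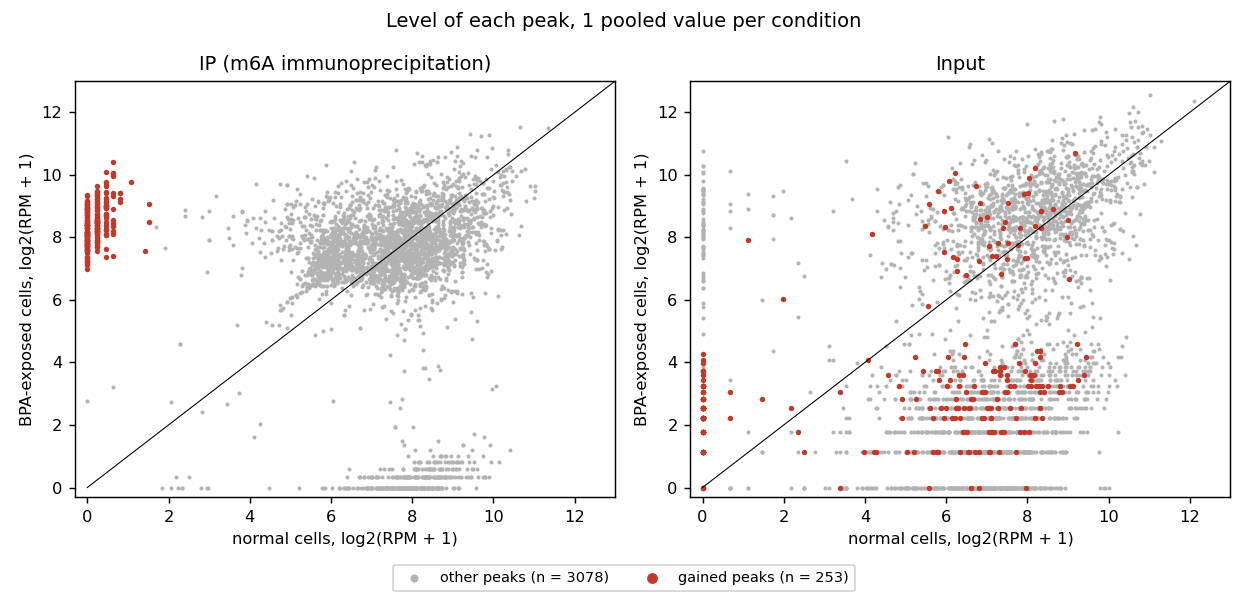
Each point is 1 of the 3331 peaks, with the pooled level in normal cells on the x axis and in BPA cells on the y axis, as log2(RPM + 1), for the IP on the left and the input on the right; gained peaks are coloured. In the IP the 253 gained peaks form a column at the left edge with 125.88 RPM or more in BPA cells, while in the input they spread over both axes.

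The highest gained peak lay in Slc6a6, the taurine transporter gene, at chr6:91732216-91732265 (coordinates read as GRCm39). It had 0.56 RPM in the normal IP and 1353.5 RPM in the BPA IP, over inputs of 575.81 and 1675.6 RPM. The transcript was thus read at this place in both conditions, and the input was 2.91 times higher in BPA (95% exact interval 2.68 to 3.16, for counting error). Mdc1 encodes a scaffold protein of the DNA damage response. Its peak at chr17:36169142-36169291 had 0.56 and 1056.19 RPM in the normal and BPA IP, and 292.31 and 1184.29 RPM in the input. The input ratio there was 4.05 (3.63 to 4.52).

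The other peaks among the 12 highest had IP levels in BPA cells from 712.57 to 1088.43 RPM and at most 1.11 RPM in normal cells. They lay in Gm6793, Gm6565, Gm6361, Rsbn1l, Ppp4r2, Hnrnpul2, 2610008E11Rik, Naa15, Gm5641 and Slc25a30. Ppp4r2, a regulatory subunit of protein phosphatase 4, had 1.11 RPM in the normal IP and 873 RPM in the BPA IP. Its input was 105.07 and 804.19 RPM, so the input differed as well. Hnrnpul2, an RNA-binding protein gene, differed much less in input, with 397.37 RPM in normal and 483.98 RPM in BPA cells, while its IP levels were 0.37 and 864.3 RPM. Naa15, the auxiliary subunit of an N-terminal acetyltransferase, showed the opposite input: 595.18 RPM in normal cells and 23.22 RPM in BPA cells, with IP levels of 0.37 and 806.99 RPM. A high BPA IP level thus stood over an input that was higher, similar or lower in BPA.

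The limits that chose the gained peaks did not use the input, although the authors' listing of peaks did, and the gained peaks differed widely in it. With 10 reads as the minimum, 71 gained peaks (28.1%) had input in both conditions, 109 (43.1%) in normal cells alone, 8 (3.16%) in BPA cells alone and 65 (25.7%) in neither. Among the 3078 other peaks of the table the shares were 50.5%, 40.6%, 2.83% and 6.11%. In RPM the minimum was higher in the BPA input, at 1.22 RPM a read against 0.587 in the normal input. Gained peaks with input in normal cells alone thus had up to 11 RPM in the BPA input. The median input of the gained peaks was 79.83 RPM (136 reads) in normal cells and 7.33 RPM (6 reads) in BPA cells. These shares come from 1 pooled column per condition and have no test. In the authors' deposited table the log2 fold change of the gained peaks ran from 4.58 to 21.93 with a median of 13.53. It was read as IP over input in BPA against normal cells, so it holds the input that defines the classes. The order of its medians over the classes therefore follows in part from their definition. Its median in the authors' deposited table was 16.76 for peaks with input in normal cells alone, 11.84 with input in both, 8.09 with input in neither and 5.46 with input in BPA cells alone.

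**Figure D2:**
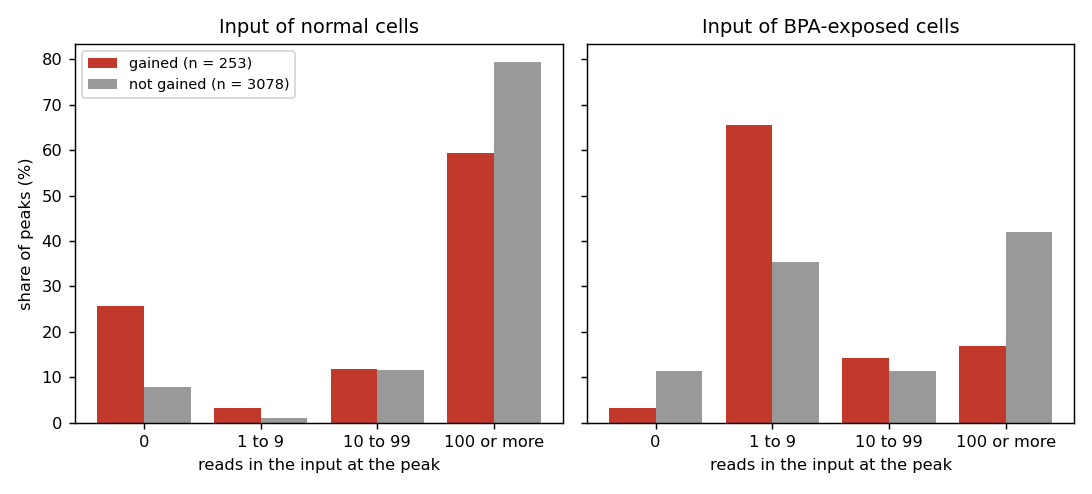
Bars give the percent of peaks with 0, 1 to 9, 10 to 99 and 100 or more input reads, for gained and for other peaks, in normal and in BPA cells. A normal input of 0 reads was found in 25.7% of the gained peaks against 7.8% of the others, and a BPA input of 100 or more reads in 17% against 42%.

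By fold, the input was at least 2-fold higher in BPA in 90 gained peaks (35.6%), where 24.3% of all listed peaks were, and at least 2-fold lower in 132 (52.2%), where 52% of all listed peaks were. It was within 2-fold in 31 gained peaks. The median log2 change of the input, with 1 RPM added, was -1.87 for gained peaks and -1.31 for the others. Among the 71 gained peaks with at least 10 input reads in both conditions the median was 0.26. The sign of the overall median thus rests on peaks with under 10 input reads in at least 1 condition. The same change of sign was seen in the 1554 other peaks with as many input reads, whose median was 0.34.

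Of the 38 gained peaks with at least 100 input reads in both conditions, 24 had a higher RPM in the BPA IP than in the BPA input. The median log2 ratio of IP to input, with 1 RPM added, was 0.40 in BPA cells (range -0.87 to 1.92) and -7.15 in normal cells. The 1155 other peaks with as many input reads had medians of -0.91 in BPA cells and -0.01 in normal cells. The choice of peaks by their IP levels fixed the contrast in normal cells and favoured the one in BPA cells. In these 38 peaks the normal input held a fragment of which the normal IP had at most 10 reads, while the BPA IP level was near that of the BPA input. Each column has its own RPM total, so the ratio is relative to that total and is not a degree of methylation.

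The peaks of Yy1, Bptf and Hdac7 were 3 of these 38. Yy1, a zinc-finger transcription factor gene, had IP levels of 0 RPM in normal and 657.31 RPM in BPA cells, over inputs of 256.5 and 683.2 RPM. Bptf, the largest subunit of the NURF remodelling complex, had 0.19 and 370.74 RPM in the IP and 126.78 and 402.1 RPM in the input. Hdac7, a class II histone deacetylase gene, had 0 and 238.72 RPM in the IP and 61.63 and 320.21 RPM in the input. In all 3 the input was higher in BPA, with ratios of 2.66 (2.35 to 3.03), 3.17 (2.66 to 3.78) and 5.20 (4.13 to 6.58).

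Phf3, a regulator of RNA polymerase II elongation, had the largest input ratio of the peaks named for their input reads. Its levels were 0.56 and 678.29 RPM in the IP and 73.37 and 1073.07 RPM in the input, a ratio of 14.6 (12.1 to 17.8). Lox, which encodes the collagen-crosslinking enzyme lysyl oxidase, had 0.19 and 648.1 RPM in the IP and 113.87 and 549.98 RPM in the input. Bod1l, a protector of stalled replication forks, and Rbm28, a nucleolar RNA-binding protein gene, had lower inputs in BPA. Bod1l had 513.59 RPM in the normal input and 372.76 RPM in the BPA input, with IP levels of 0.19 and 701.83 RPM. Rbm28 had 498.33 and 255.44 RPM in the input and 0.74 and 686.48 RPM in the IP. Rbm39, a splicing coactivator gene, was at the far end, with 695.55 RPM in the normal input, 17.11 RPM in the BPA input and 0.37 and 683.92 RPM in the IP.

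The largest class, 109 peaks with input in normal cells alone, had a median input of 120.91 RPM in normal cells and 4.89 RPM in BPA cells, and a median BPA IP level of 336.97 RPM. G3bp2, which encodes a stress granule protein, shows the pattern: its peak at chr5:92202405-92202429 had 1136 reads in the normal input, 9 in the BPA input, 0.74 RPM in the normal IP and 676.24 RPM in the BPA IP. Rab6a and Rab10, small GTPases of the Golgi and of exocytic vesicles, had 307 and 219 reads in the normal input, 9 and 4 in the BPA input, and 464.64 and 463.88 RPM in the BPA IP. Prpf8, the core protein of the spliceosome, had 226 and 4 input reads and 282.73 RPM in the BPA IP. Tagln2 and Ahnak, genes of actin-associated proteins, had 464 and 233 reads in the normal input, 7 and 3 in the BPA input, and 295.52 and 266.61 RPM in the BPA IP.

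A low BPA input at the peak went with a low gene count in some of these genes and not in others. The 174 gained peaks with fewer than 10 reads in the BPA input lay in 163 genes, of which 159 were in the count table. Of these, 100 had at least 100 reads in both BPA RNA-seq libraries. Among all genes with a gained peak, 145 of 227 had as many, a similar share. Genes with no more than 10 reads in either BPA library made up 15.6% of all tested genes. Their share was 4.16% among genes with peaks of which none was gained. Among the 100 tested genes of peaks with input in normal cells alone there were 12, Hmgb3 with 1 and 2 reads among them. G3bp2, in contrast, had 12658 reads in the BPA libraries together and 20286 in the normal ones. The BPA libraries held 618 and 548 reads of Rab6a, and 2902 and 1504 of Prpf8.

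A gained peak with no input in normal cells was seen in 65 cases. Their 62 genes included 58 in the count table, and 47 of these had at least 100 reads in both normal RNA-seq libraries. Srsf6, a splicing factor of the SR family, was read 3876 and 2070 times in normal RNA-seq. Its peak at chr2:162777932-162778056 had 0 reads in the normal input, 2 in the BPA input and 1167 in the BPA IP (298.59 RPM). Dnmt1, the maintenance DNA methyltransferase gene, had 623 and 600 gene reads in normal cells and a peak with 0, 2 and 982 reads in these columns. For these peaks of Srsf6 and Dnmt1 the IP level had at most 2 input reads to be set against in either condition. Only 3 gained peaks had 0 reads in both inputs.

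Only 8 gained peaks had input in BPA cells alone, among them Zc3h13 and Ptgs2. Zc3h13 belongs to the complex that writes m6A. Its peak had 2 normal and 198 BPA input reads, a ratio of 206 (56.3 to 1710). The whole gene did not differ in this way, with 1923 and 350 reads in normal and 1352 and 883 in BPA RNA-seq libraries. The IP levels of Zc3h13 were 0 and 290.4 RPM. Ptgs2, the gene of the prostaglandin synthase COX-2, had 0 and 10 input reads and 0.19 and 321.87 RPM in the IP. Its gene reads went the other way, with 2815 in the normal and 314 in the BPA RNA-seq libraries together.

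In form the gained peaks were like the rest of the table. Their lengths were all multiples of 25 bases, from 25 to 175 with a median of 75, and 28.5% were 25 bases long against 26.4% of the others. Peaks in 2 or more blocks, the sign of a spliced fragment, made up 17.8% against 19.8%. The gene was protein-coding for 234 (92.5%), a pseudogene for 11, a transcribed pseudogene for 1 and a long noncoding RNA for 2, with 5 unmatched. The gene lay on the plus strand for 129 of the 253. Exons, introns and UTRs were not analysed here.

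Gained peaks of the same gene were often not separate measurements. There were 21 genes with 2 gained peaks each, and in 10 of these 21 pairs both peaks had the same number of reads in the BPA IP, as against 6.92% of 1445 other pairs of peaks in the same gene. Cep57, a centrosomal protein gene, had 2053 reads in the BPA IP at both of its peaks, 719 bases apart. The peaks of Rab23, a small GTPase of ciliary signalling, were 9661 bases apart and each had 1284 reads there. In Ralgapb, Sema3f and Saa3 the pair had the same reads in all 4 columns. Such pairs share their reads or their value, so 253 peaks stand for fewer separate measurements.

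Close copies and opposite strands set a second limit. The gained peaks of Mak16 and Tti2 overlapped on opposite strands of chromosome 8, and those of Eif3d and Gm17638 on chromosome 15. The sources used here do not say whether reads were counted by strand, so the genes of each pair cannot be told apart. Nutf2, a nuclear import factor gene, and its pseudogenes Nutf2-ps2 and Nutf2-ps1 all had gained peaks, with 506.09, 502.51 and 256.12 RPM in the BPA IP. The pseudogenes Gm6793, Gm6565 and Gm6361 reached 1088.43, 1055.68 and 1028.31 RPM, and their normal input was alike at 291.13, 318.72 and 301.11 RPM. Gm6361 had 1 read in one RNA-seq library and 0 in the other 3. The gene to which these pseudogene peaks belong is uncertain.

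Other peaks of the same gene were listed for 84 of the 232 genes (36.2%), beside 91 of the gained peaks, and 148 genes had gained peaks alone. All 146 of these other peaks were above 1.9 RPM in the normal IP. This follows almost entirely from the choice of peaks, since 3076 of the 3078 peaks that were not gained were above that limit. By level, 142 of the 146 had at least 139 reads there, the same RPM as the BPA limit of the choice, and the median was 198.81 RPM in the normal IP and 240.51 RPM in the BPA IP. The genes with a gained peak more often had several peaks than the rest, 98 of 232 (42.2%) against 581 of 2063 (28.2%). These shares are not independent of the number of peaks per gene, and no test was made.

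The other peaks of these genes did not move as a group. In the IP, 42 of the 146 were at least 2-fold higher in BPA and 31 at least 2-fold lower, with 73 within 2-fold. Among all listed peaks 32.3% were higher and 24.7% lower by that measure, and among those not gained 26.8% and 26.7%. The nearest other peak lay 25 to 45412 genomic bases away, with a median of 1625. It was within 200 bases for 14 gained peaks and over 1000 bases away for 53 of the 91. It lay upstream for 43 and downstream for 48.

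Ptgs2 had the strongest other peak. At chr1:149983149-149983423 it had 1646.93 RPM in the normal IP and 327.76 RPM in the BPA IP, and the gained peak 4629 bases upstream went from 0.19 to 321.87 RPM. In BPA cells both peaks of the gene were thus at a similar level. Input at the other peak was 1271.94 RPM in normal and 17.11 RPM in BPA cells. Celf2, an RNA-binding splicing regulator gene, and Atl3, which encodes an atlastin of the endoplasmic reticulum, also had an other peak that was lower in the BPA IP than in the normal IP. The other peak of Celf2 had 742.85 and 158.12 RPM in the IP, and its gained peak 0 and 344.13 RPM. That of Atl3 had 989.79 and 314.71 RPM, and its gained peak 0.19 and 333.64 RPM. Unlike in Ptgs2, the input at the other peak stayed well read in BPA, with 684.98 and 411.87 RPM in Celf2 and 784.77 and 1867.49 RPM in Atl3.

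In Anp32b, a histone chaperone gene, the other peaks had 1009.59 and 475.73 RPM in the normal IP and both had 416.54 RPM in the BPA IP. The gained peak there had 1.67 and 186.27 RPM. The 4 other peaks of Lox had 63.12 to 866.13 RPM in the normal IP and 57.82 to 515.82 RPM in the BPA IP. In Rbms1, whose product binds single-stranded nucleic acid, 1 of the other peaks had 835.22 and 129.98 RPM and the other had 476.66 and 587.97 RPM. The gained peak of Rbms1 spans a spliced interval and lay 45412 bases from them.

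In 11 genes a gained peak stood beside a lost one, here a peak with 10 or fewer reads in the BPA IP. They were Abce1, Asah1, Camsap2, Cbx5, Cdh2, Eif3d, Gm6793, Slc25a30, Ssr1, Uso1 and Usp34. Uso1, a Golgi tethering factor gene, had a gained peak with 0 and 238.97 RPM and a lost one with 509.05 and 0.51 RPM. Its 4 further peaks ranged from 58.31 to 648.26 RPM in the normal IP and from 394.28 to 1275.47 RPM in the BPA IP. The gained and lost peaks of Cdh2, which encodes N-cadherin, were about a kilobase apart, with 0 and 191.9 RPM at one and 387.07 and 0 RPM at the other.

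Camsap2, whose product caps microtubule minus ends, had 0 and 328.53 RPM at the gained peak and 370.41 and 0 RPM at the lost one. Abce1, a ribosome recycling factor gene, had 0.37 and 607.67 RPM at the gained peak and 361.52 and 0.51 RPM at the lost one. Usp34, a deubiquitinase gene, had 2 lost peaks, with 424.09 and 170.67 RPM in normal cells, beside a gained one at 330.32 RPM in BPA cells and 2 peaks read in both conditions. In 353 of the 2295 genes (15.4%) there was a lost peak, as there was in 11 of the 232 genes with a gained peak (4.74%), 148 of which had no other peak that could be lost.

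**Figure D3:**
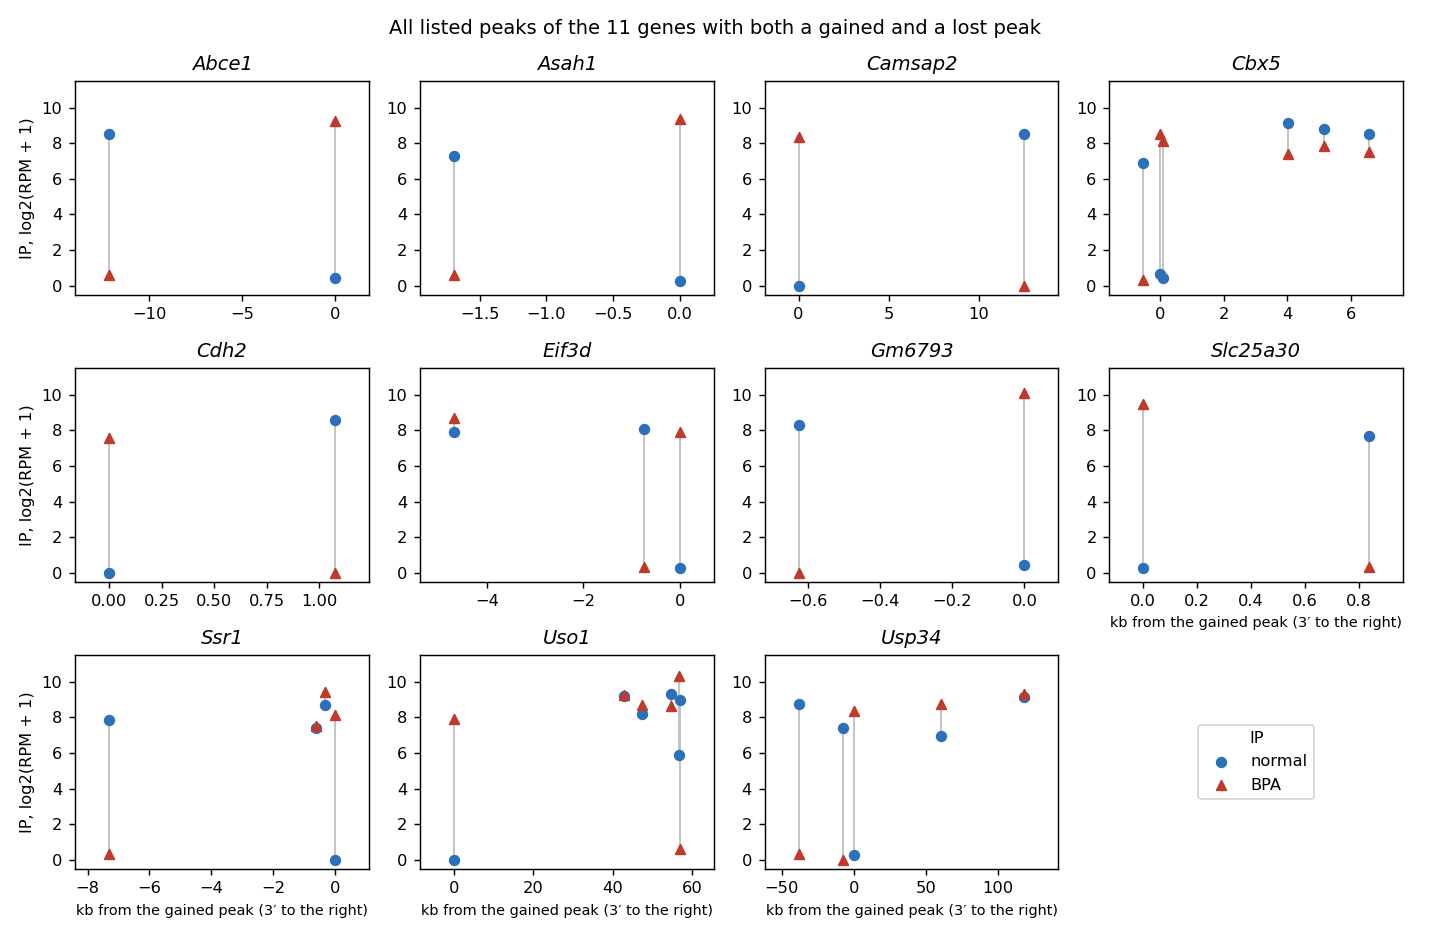
For the 11 genes with both a gained and a lost peak, all listed peaks are placed by distance in kilobases from the gained peak along the gene, with the IP level in normal and BPA cells as log2(RPM + 1) and 3′ to the right; Cbx5 has 2 gained peaks, of which 1 marks 0. In Uso1 the gained peak had 0 and 238.97 RPM and the lost one 509.05 and 0.51 RPM, with 4 peaks read in both conditions beside them.

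Gene counts from RNA-seq show whether the genes themselves differed in RNA level. The design text names RNA-seq as the input of the MeRIP, so these counts are not independent of the input columns or of the authors' selection of the listed peaks. Of the 232 genes 227 were in the count table and 213 were tested. None passed an adjusted p of 0.05 in edgeR's quasi-likelihood test, nor did any of all 8645 tested genes (0%), with a lowest adjusted p of 0.329. The fitted log2 fold change was positive for 121 and negative for 92 of the 213, with a median of 0.15. The median was -0.04 for all tested genes and 0.07 for genes with peaks of which none was gained. DESeq2, run as an alternative, called 7 of the 213 genes, against 3.05% of all tested genes: Fam120b, Hmgb3, Dnajc1, Anp32b, Gramd4, Ube2e2 and Arfip1.

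At an unadjusted p under 0.05 in edgeR, 4 of the 213 genes were higher in BPA (Srsf6, Hprt, Anp32b and Mdc1), where 1.35% of all tested genes were, and 10 were lower, where 12.7% were. All tested genes had fewer reads, with a median of 136 in BPA replicate 2 against 571 for the 213. Of the 1828 tested genes with peaks of which none was gained, 34 were higher and 54 lower. Hprt, named here after its values were seen, encodes a purine salvage enzyme. Its reads numbered 2097 and 1387 in normal and 4055 and 2929 in BPA libraries, or 179.8 ± 2.72 and 509 ± 53.9 CPM (counts scaled to a common library total; SD, n = 2 libraries each), with an edgeR adjusted p of 0.329. Anp32b had 20878 and 11335 reads in normal and 31254 and 20050 in BPA cells, or 1631 ± 251 and 3690 ± 81.5 CPM. Its log2 fold change was 1.18 with a standard error of 0.26 and an edgeR adjusted p of 0.329. The libraries of the groups did not overlap in CPM in 44 of the 213 genes that were higher in BPA and in 42 that were lower. Of all tested genes 12.8% and 27.2% had such a separation. It was seen in 336 and 352 of the 1828 tested genes with peaks of which none was gained. In either direction the shares were 40.4% of the 213, 40.0% of all tested genes and 37.6% of the 1828.

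Where the average log2 CPM was 3 or more, the largest positive fitted changes were in Taf3, Fbxo7, 2810001G20Rik, Cyb5d1 and Ccdc58. Fbxo7, the gene of an F-box protein of mitophagy, had 151 and 180 reads in normal and 625 and 946 in BPA cells, which do not overlap. Its log2 fold change was 2.79 ± 1.24 (SE) with an edgeR adjusted p of 0.44. Taf3, a subunit of transcription factor TFIID, had 217 and 0 reads in normal and 1020 and 1987 in BPA cells. The normal replicates of Taf3 thus disagreed. Ccdc58 had 532 and 434 reads in normal and 1401 and 1130 in BPA cells. In Cyb5d1 and 2810001G20Rik the replicates disagreed: Cyb5d1 had 44 and 116 normal reads against 636 and 0 in BPA, and 2810001G20Rik had 0 and 63 against 3 and 249.

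**Figure D4:**
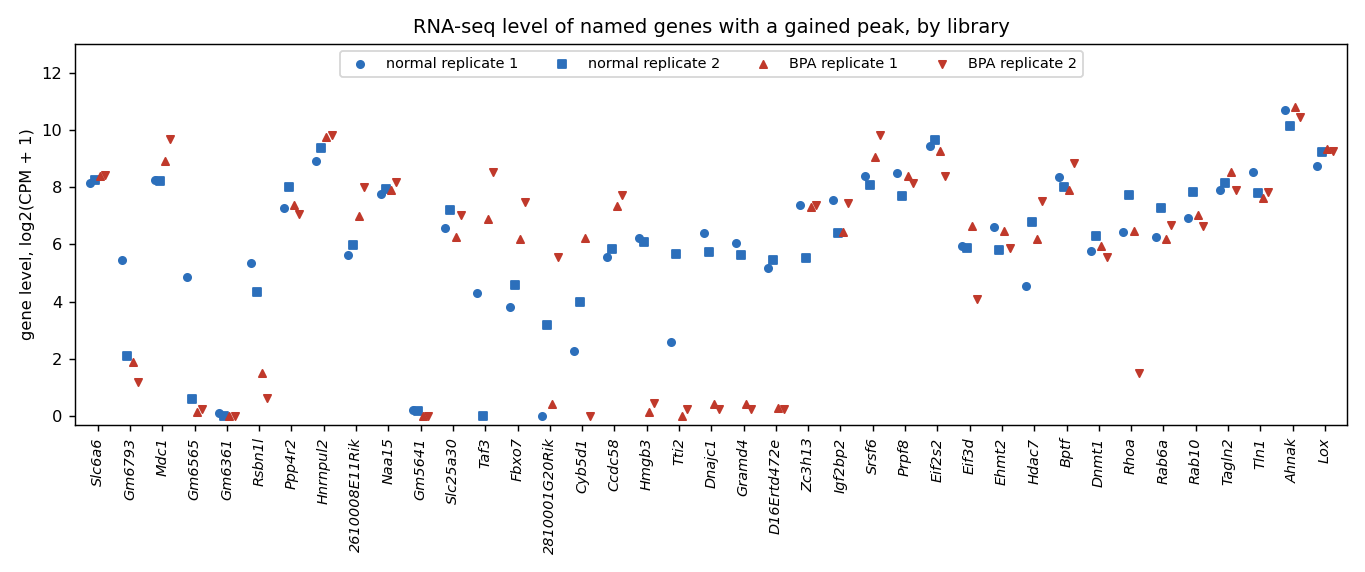
RNA level of 39 genes with a gained peak as log2(CPM + 1) in each of the 4 RNA-seq libraries, normal and BPA. Srsf6, Mdc1 and Ccdc58 had both BPA libraries above both normal ones, while Hmgb3, Dnajc1 and Gramd4 had at most 3 reads in each BPA library.

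The largest negative fitted changes were in Hmgb3, Tti2, Dnajc1, Gramd4 and D16Ertd472e. Hmgb3, a high-mobility group chromatin protein gene, had 859 and 516 reads in the normal RNA-seq libraries and 1 and 2 in the BPA libraries. Its pooled ratio of BPA to normal was 0.00302 (95% exact interval 0.000623 to 0.00885, for counting error), with an edgeR adjusted p of 0.329 and a DESeq2 adjusted p of 0.00683. The gained peak of Hmgb3 at chrX:70603399-70603423 nevertheless had 897 reads in the BPA IP (229.51 RPM), with 2 in the BPA input and 385 in the normal input. Dnajc1, a chaperone gene of the endoplasmic reticulum, had 967 and 412 reads in normal and 3 and 1 in BPA libraries, beside 629 reads in the BPA IP.

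This pattern was shared by 15 of the 213 tested genes, which had 10 or fewer reads in both BPA RNA-seq libraries and 17 gained peaks. In the BPA IP these peaks had 136.63 to 603.58 RPM, or 534 to 2359 reads. The genes were Acp2, Rgs19, Fam120b, Hmgb3, Asf1a, D16Ertd472e, Dnajc1, Arfip1, Tti2, Sema3f, Gramd4, Usp6nl, Saa3, Ube2e2 and Vsig10. Asf1a, a histone chaperone gene, had 406 and 373 reads in normal and 5 and 1 in BPA RNA-seq libraries, and its peak had 0 reads in the normal IP and 2240 in the BPA IP. Ube2e2, a ubiquitin-conjugating enzyme gene, had 384 and 742 against 5 and 2 reads, and 2332 reads in the BPA IP. In 16 of the 17 peaks the BPA input had at most 7 reads. The exception, Tti2 with 374, overlaps the peak of Mak16. The gene count of Mak16 was lower than that, with 97 reads in the BPA RNA-seq libraries together. The source of the 374 reads was not tested. The share of such genes was 7.04% here, 15.6% over all tested genes and 4.16% over genes with peaks of which none was gained.

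The peaks with higher input in BPA did not all lie in genes with more RNA. Slc6a6 had 292 ± 18 CPM in normal and 339 ± 8.46 CPM in BPA cells, a log2 fold change of 0.21 with an edgeR adjusted p of 1, while the input at its peak was 2.91 times higher. Mdc1 had 299.7 ± 5.15 and 656 ± 244 CPM. Its log2 fold change of 1.13 had an edgeR adjusted p of 0.353. Yy1 had 160 and 785 reads in normal and 1333 and 5 in BPA cells, so its replicates differed more than its groups.

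Few of the genes with a gained peak were on the functional lists. Of 406 listed genes, 156 had a listed peak and 17 of these had a gained one, a share close to the 10.1% (232 of 2295) over all genes with a peak. No enrichment test was made, and the counts of each list are to be read against the same 10.1%. The m6A machinery held 26 genes, of which 10 had a peak and 2 a gained one, Zc3h13 of the writers and Igf2bp2 of the readers. The peak of Igf2bp2 had 238 reads in the normal input, 138 in the BPA input and 0 and 240.51 RPM in the IP, so its input ratio of 1.21 (0.972 to 1.5) was not distinguishable from 1 by counting error. Of the 24 m6A genes tested in RNA-seq, 13 were positive and 11 negative with a median log2 fold change of 0.23, and none passed the edgeR threshold. At an unadjusted p under 0.05, Ythdc1 was higher and Rbm15b, Ythdf2 and Pcif1 were lower, 1 and 3 of 24 genes, beside 1.35% and 12.7% of all tested genes.

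Of the central writer and eraser genes, some differed widely between replicates and others did not. Mettl3 had 452 and 82 reads in normal and 830 and 1 in BPA libraries. Mettl14 had 691 and 195 against 49 and 2. Wtap had 1025 and 946 against 3632 and 3. Of the erasers, Alkbh5 had 3112 and 2513 against 4283 and 1237 reads, and Fto had 918 and 2 against 645 and 10. In Mettl3 and Wtap the second BPA library was the low one, so the BPA libraries lay on both sides of the normal ones.

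The splicing factor list held 24 genes with a peak, of which 2 had a gained one, Srsf6 and Prpf8. Srsf6 had 301 ± 49.8 CPM in normal and 712 ± 265 in BPA cells, with an edgeR adjusted p of 0.329, and Prpf8 had 280.1 ± 107 and 309 ± 39.7 CPM. Of the 23 translation factor genes with a peak, Eif2s2, a subunit of the initiator tRNA carrier eIF2, and Eif3d, a cap-binding subunit of eIF3, had gained peaks. Both had almost no input, 3 reads in normal and 5 in BPA cells for Eif2s2 and 1 and 3 for Eif3d, with 351.3 and 239.49 RPM in the BPA IP.

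Of 19 chromatin regulator genes with a peak, 4 had a gained one: Ehmt2, an H3K9 methyltransferase gene, Hdac7, Bptf and Dnmt1. Input was ample for Hdac7 and Bptf and at 0 reads in normal cells for Ehmt2 and Dnmt1. Of 16 small GTPase and regulator genes with a peak, Rhoa, Rab6a and Rab10 had gained ones. Rhoa, the regulator of actin stress fibres, had 2 gained peaks with 280.42 and 354.37 RPM in the BPA IP and 12 reads in the BPA input at each. Its gene reads were 983 and 1660 in normal and 745 and 10 in BPA libraries. Of 27 cytoskeletal genes with a peak, Tagln2, Tln1 and Ahnak had gained ones, and of 21 extracellular matrix genes, Lox. Tln1, the gene of the integrin adaptor talin, had 190.1 RPM in the BPA IP over 16 normal and 6 BPA input reads.

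Of 38 listed core autophagy genes 35 were in the count table and 4 had a listed peak, none of it gained. With 4 genes and a share of 10.1% over all genes with a peak, a count of 0 is near the background. In RNA-seq 23 of the 30 tested autophagy genes had a negative fitted change, with a median log2 fold change of -0.81 against -0.04 for all tested genes, none passed the edgeR threshold, and 6 were lower at an unadjusted p under 0.05, where 12.7% of all tested genes were. Map1lc3b, which encodes the autophagosome protein LC3B, had 416 and 350 reads in normal and 2 and 2 in BPA libraries. The steroidogenic list had 2 genes with a peak and the endoplasmic reticulum stress list 9, in each case without a gained one. Of the markers of Sertoli, macrophage, germ, smooth muscle and endothelial cells, 1 gene had a listed peak and none had a gained one.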

How the data were processed

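Peak levels were deposited by the authors as RPM, 1 pooled value per condition for IP and input. Reads were recovered from the RPM steps: 100% of values were whole within 0.1 read. No source used here names the peak caller or the RPM totals. For each peak the authors also deposited a log2 fold change, a p-value and a false discovery rate, with no stated test. Gene read counts were deposited as whole numbers; the submitters' processing notes name HISAT2 2.2.1, featureCounts 2.0.1, fastp 0.20.1 and DESeq2 1.38.3, and the builds GRCm39 and GRCh38. The count columns name a condition and a replicate but no assay and were taken as RNA-seq. Coordinates were made 1-based and read as GRCm39, because 11.3% of peaks lay inside their gene's span in the GRCm38 table. Symbols were found for 2241 of 2295 gene IDs.

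Counts of 8645 genes passing filterByExpr were tested with edgeR 4.0.16 (TMM, quasi-likelihood F test, Benjamini-Hochberg, 0.05) in R 4.3.3, after a check on simulated data. The simulated counts had a fixed spread and large changes, so the check does not measure the power of the test in these data. DESeq2 1.42.0 was an alternative. Input ratios have 95% exact conditional intervals on reads scaled by the recovered totals. They cover counting error alone, because without molecular identifiers a read need not be a separate molecule.

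The members and gene lists were chosen with earlier results of these data known. Named were the 12 gained peaks highest in the BPA IP, the 10 with most input reads, those nearest the limits, the 8 genes with the strongest other peak, 8 with a lost peak, the 5 largest RNA rises and falls, and list members; others were chosen after their values were seen. Sequences were not used here.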

Additional observations from a re-analysis of the deposited data

How the results depend on the processing

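The number of gained peaks stayed between 241 and 253 under the alternatives run, and the genes with another peak in the normal IP between 59 and 84. The last 3 peak alternatives (without Gm-named genes, overlapping peaks counted once, peaks of the same gene with equal BPA IP reads counted once) were added after seeing the data. The median input change turned to 0.26 with at least 10 input reads in both conditions; the 71 peaks with input in both became 183 with 1 read as the minimum. RNA calls over all genes were 0 in edgeR, 264 in DESeq2, 1 without the filter on low counts and 1 with the replicate block; leaving out each library gave 0 to 4. Among genes with a gained peak DESeq2 called 7. Without normal replicate 1 the log2 fold change of Taf3 was 13.78, because the normal library that was left had 0 reads of it. The median RNA change of these genes was 0.01 to 0.23 without each library and -0.12 with the replicate block, where the median over all genes was -0.74; DESeq2 size factors moved the median over all genes from -0.04 to 0.10. Cyb5d1 turned to -1.67 with the replicate block; leaving out each library gave -9.27 (without BPA replicate 1) to 3.39 for Cyb5d1 and -3.48 (without BPA replicate 2) to 10.60 for 2810001G20Rik. The deviations of same-numbered libraries had a correlation of 0.00409. With 2 libraries in each group this value cannot tell whether same-numbered libraries were prepared together. The causes were not tested. With 1 library left in a group, it is assumed to vary like the others. Input under 10 reads at 174 gained peaks in BPA cells limits any ratio of IP to input there.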

Other observations

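Low input had a different form in the conditions. Of the 73 gained peaks with fewer than 10 reads in the normal input, 65 had 0 reads, as had 240 of 275 such peaks among the others. Of the 174 with fewer than 10 reads in the BPA input 8 had 0, against 349 of 1437 among the others. Gained peaks with 0 reads in both inputs numbered 3. The share of listed peaks that were gained ranged over the autosomes from 4.92% on chromosome 4 (9 of 183) to 13.4% on chromosome 9 (21 of 157), and was 9.92% on the X chromosome (12 of 121).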
